A study of Mus musculus with 2 samples.

Results

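The mouse mitochondrial genome carries 37 genes in the GENCODE M21 annotation of GRCm38 (mm10), namely 13 mRNAs, 2 rRNAs and 22 tRNAs. They were chosen as all genes annotated on chromosome M and were matched by gene identifier without its version, and all 37 were found among the 43346 genes of the deposited tables. The samples were heart tissue of healthy newborn mice (postnatal day 0) of strain B6NTac;B6NCrl/Lap, pooled over males and females, with no treatment or mutation listed. Hearts of 15 mice were pooled for replicate 1; for replicate 2 the labels state pooling without a number. Both were separate isolates of heart tissue with the same listed donor, so the 2 values per gene measure the spread between the 2 isolates and their libraries together. The libraries were stranded paired-end libraries made from rRNA-depleted total RNA above 200 nt, with synthetic spike-in RNAs. The design holds 1 group, so it has no comparison between conditions, and with 2 replicates an exact two-sided sign-flip test cannot give a p below 0.5. No p-value was therefore computed.

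The files held 71186117 expected counts in replicate 1 and 75105452 in replicate 2. The spike-ins took 1.27% and 1.46% of them. All 7 cardiac muscle markers were detected at 1 TPM (a count per effective length, scaled to a fixed total per library) or more in both replicates, among them cardiac alpha-actin (Actc1) at 5636 and 5468 TPM. Of 11 markers of other tissues, 4 were detected in both replicates. The 11 summed to 1767 and 2121 TPM, of which the alpha-globin gene Hba-a2 made 1550 and 1688 TPM. Also detected in both were the blood marker Hbb-bt at 189.9 and 375.8 TPM and the liver markers Alb at 8.35 and 8.22 TPM and Ahsg at 11.41 and 16.54 TPM. The urothelial marker Upk3a was at 0.07 and 32.57 TPM, and the lymphocyte marker Rag1 (named after its values were seen) at 3.20 and 0.01 TPM. The lung markers Scgb1a1, at 2.33 and 0 TPM, and Sftpc, at 1.12 and 0 TPM, had counts in replicate 1 only. The muscle regulators Myod1 and Myog and the brown fat marker Ucp1 were listed at 0. The part of these other tissues in the mitochondrial values was not tested. In bulk tissue, fewer cells of a type and less RNA per cell cannot be told apart.

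As background, mitochondrial DNA is a small circle present in many copies per cell, and both of its strands are transcribed into long RNAs that cover many genes. Most genes are read from the heavy-strand promoter. The tRNA genes lie between the others, and their excision by RNase P at the 5′ end and ELAC2 (RNase Z) at the 3′ end frees the mRNAs and rRNAs, a scheme known as tRNA punctuation. All 13 proteins are subunits of the oxidative phosphorylation complexes I, III, IV and V, whose other subunits come from the nucleus, and the heart is one of the tissues richest in mitochondria.

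The gene layout was compact. Of 36 pairs of neighbouring genes, 9 overlapped and 12 abutted, and the largest gap was 32 bases. A tRNA gene, on either strand, stood directly on both sides of 8 of the 15 mRNA and rRNA genes. Of these tRNA genes, mt-Ty and mt-Ts1 beside mt-Co1 and mt-Te before mt-Cytb lie on the strand opposite to the mRNA. The sequence around mt-Tl1, the leucine tRNA gene between mt-Rnr2 and mt-Nd1 (chrM:2656-2770, plus strand), is shown as a punctuation site on the same strand as its neighbours. The capitals mark the tRNA, with mt-Rnr2 ending directly before it and mt-Nd1 starting directly after it. The last 3 sequences in this paragraph show the longest overlaps between mRNA genes, with 20 bases on either side and the shared bases in capitals. They are mt-Atp8 with mt-Atp6 (chrM:7907-7989), mt-Nd4l with mt-Nd4 (chrM:10147-10193), and mt-Nd5 with mt-Nd6 (chrM:13532-13585), each on the plus strand of the reference. All were built from GENCODE M21 transcript sequences on GRCm38.
mt-Tl1 junction: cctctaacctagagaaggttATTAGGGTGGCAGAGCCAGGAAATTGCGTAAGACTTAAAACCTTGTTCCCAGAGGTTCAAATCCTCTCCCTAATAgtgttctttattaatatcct
mt-Atp8/mt-Atp6: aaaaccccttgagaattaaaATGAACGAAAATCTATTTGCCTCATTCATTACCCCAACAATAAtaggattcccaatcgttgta
mt-Nd4l/mt-Nd4: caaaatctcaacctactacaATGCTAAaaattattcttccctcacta
mt-Nd5/mt-Nd6: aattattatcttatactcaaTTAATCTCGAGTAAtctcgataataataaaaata

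The mt-Atp8 and mt-Atp6 genes shared 43 bases, mt-Nd4l and mt-Nd4 shared 7, and both pairs lie on the same strand. The mt-Nd5 and mt-Nd6 genes shared 14 bases on opposite strands. Of the 13 mRNAs, 9 started with ATG, while mt-Nd2 started with ATA, mt-Nd3 with ATT, mt-Nd5 with ATC and mt-Nd1 with GTG. Of the 13, 8 ended in TAA and 2 (mt-Nd1 and mt-Nd2) in TAG. The annotated mt-Co3, mt-Nd4 and mt-Cytb ended in a lone T, which is known to be completed to a stop codon by polyadenylation. The GC content of the mRNAs ran between 31.9% and 41.1%. Guanine made 5.88% to 16.1% of the 12 heavy-strand mRNAs and 28.1% of mt-Nd6, the only mRNA that is transcribed from the other strand.

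The mitochondrial genome gave a large share of the RNA measured per length. Its genes held 21.05% of all TPM in replicate 1 and 21.66% in replicate 2 (21.4% ± 0.433, SD, n = 2). FPKM gave the same shares, 21.05% and 21.66%. Without division by length, the genes held 32.22% of the expected counts in replicate 1 (95% Wilson interval 32.21% to 32.23%) and 32.86% in replicate 2 (32.85% to 32.87%), and these intervals cover counting error only. The share of counts was above the share of TPM in both replicates. Nuclear protein-coding genes held 262919 and 265430 TPM, and the mitochondrial genes 210523 and 216648 TPM. All other entries together held more TPM than both of these sets combined. By counts, the nuclear protein-coding genes held 43854797 and 45707313 and the mitochondrial genes 22936416 and 24680523. The other entries held fewer counts than either set. The TPM shares are relative to a total that includes those entries.

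The 2 rRNAs held most of it. mt-Rnr2, the 16S rRNA of the large mitochondrial ribosomal subunit (chrM:1094-2675), was at 117810 TPM in replicate 1 and 119706 TPM in replicate 2. mt-Rnr1, the 12S rRNA of the small subunit (chrM:70-1024), was at 22311 and 26345 TPM. The rRNAs together made 14.01% and 14.61% of TPM, and 24.8% and 25.4% of counts, in libraries described as depleted of rRNA. The sources used here do not say whether mitochondrial rRNA was a target of the depletion.

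The ribosome holds the 2 rRNAs in equal numbers, but mt-Rnr2 was 5.28-fold above mt-Rnr1 in replicate 1 and 4.54-fold above it in replicate 2 on the TPM scale (log2 ratio 2.29 ± 0.15, SD, n = 2). The rRNAs come from the same strand, and mt-Tv, a tRNA gene that abuts both, lies between them. Per annotated length the mean log2 ratio was 2.52.

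The 13 mRNAs held 7.04% of all TPM in replicate 1 and 7.06% in replicate 2, and 7.43% of counts in both. Among protein-coding genes alone they made 21.12% and 21.01% of TPM, against 10.8% and 10.9% of protein-coding counts. In replicate 1, 10 of the 20 highest protein-coding genes by TPM were mitochondrial, and in replicate 2 this was 9 of 20. The highest nuclear protein-coding gene was Atp5b in replicate 1 at 6157 TPM, with 3 mitochondrial mRNAs above it. In replicate 2 it was Actc1 at 5468 TPM, with 4 mitochondrial mRNAs above it. By undivided counts, only mt-Co1 stood above the highest nuclear gene, the giant sarcomere gene Ttn, which had 1106017 and 1197338 counts.

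**Figure D1:**
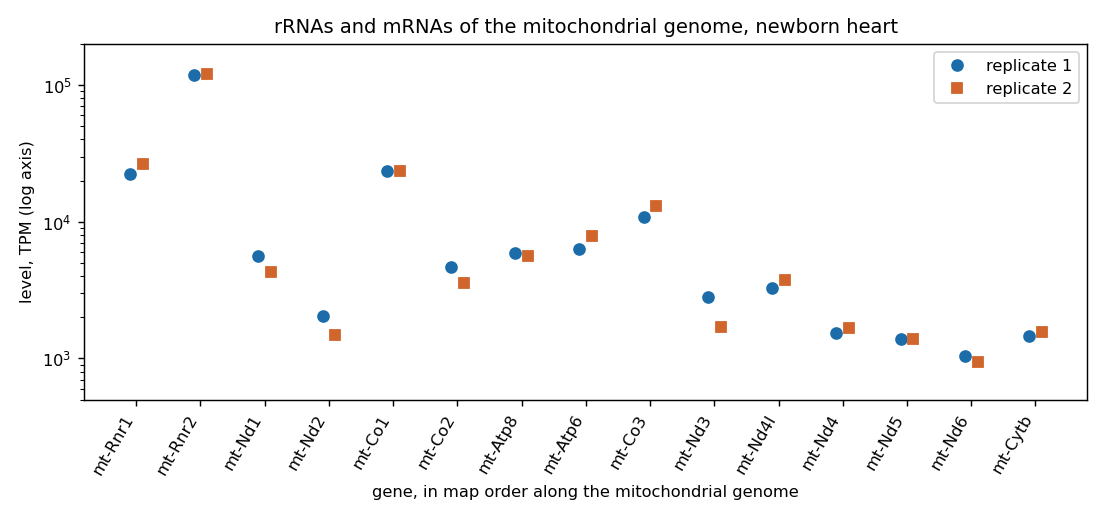
Level of each rRNA and mRNA gene in TPM (log axis), in map order, with 1 point per replicate. mt-Rnr2 lies highest at 117810 and 119706 TPM, mt-Co1 is the highest mRNA at 23570 and 23682 TPM, and mt-Nd6 is the lowest at 1033 and 945.3 TPM.

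Complex IV mRNAs formed the largest part of the mRNA pool. This complex, cytochrome c oxidase, passes electrons to oxygen, and mt-Co1, mt-Co2 and mt-Co3 encode its catalytic core. mt-Co1 (chrM:5328-6872) was at 23570 and 23682 TPM (23626 ± 78.9, SD, n = 2). It made 33.5% of mRNA TPM in both replicates and 59.1% of mRNA counts in both. mt-Co3 (chrM:8607-9390) was at 10835 and 13051 TPM, and mt-Co2 (chrM:7013-7696) at 4666 and 3586 TPM. Thus mt-Co3 was higher in replicate 2 and mt-Co2 in replicate 1. The 3 mRNAs together held 55.5% and 57.1% of mRNA TPM.

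Complex V, the ATP synthase, has 2 mitochondrial subunits that form part of its membrane sector. mt-Atp6 (chrM:7927-8607), part of the proton channel, was at 6291 and 7875 TPM. mt-Atp8 (chrM:7766-7969) was listed at 5920 and 5643 TPM, but these values rest on 1321 and 724 counts. Its effective length, the number of positions at which a fragment could start, was 2.11 and 1.16 nt of 204 nt annotated. On the other scale, expected counts per annotated length, the log2 ratio of mt-Atp8 to mt-Atp6 was -5.88 and -7.15, against -0.09 and -0.48 on the TPM scale.

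Complex I, the NADH dehydrogenase, has 7 mitochondrial subunits, all in its proton-pumping membrane arm. They held 25.1% and 21.5% of mRNA TPM. mt-Nd1 (chrM:2751-3707) was the highest at 5606 and 4263 TPM. mt-Nd2 (chrM:3914-4951) was at 2028 and 1483 TPM, and mt-Nd3 (chrM:9459-9806) at 2808 and 1694 TPM, so these 3 were higher in replicate 1. mt-Nd4 (chrM:10167-11544) was at 1528 and 1677 TPM and mt-Nd5 (chrM:11742-13565), the longest mRNA at 1824 nt, at 1394 and 1386 TPM. mt-Nd5 was the mRNA whose replicates lay closest in relation to their level after mt-Co1.

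mt-Nd4l (chrM:9877-10173) was listed at 3260 and 3756 TPM from 7299 and 8144 counts, with an effective length of 21.21 and 19.58 nt of 297 nt. mt-Nd4l and mt-Nd4 are known to share a bicistronic mRNA, as are mt-Atp8 and mt-Atp6. On the TPM scale mt-Nd4l was 2.13-fold and 2.24-fold above mt-Nd4. On the scale of counts per annotated length the order turned, with a log2 ratio of -2.38 in replicate 1 and -2.42 in replicate 2. The direction within this pair thus differed between the length scales. mt-Cytb (chrM:14145-15288), cytochrome b and the only mitochondrial subunit of complex III, was at 1463 and 1557 TPM.

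**Figure D2:**
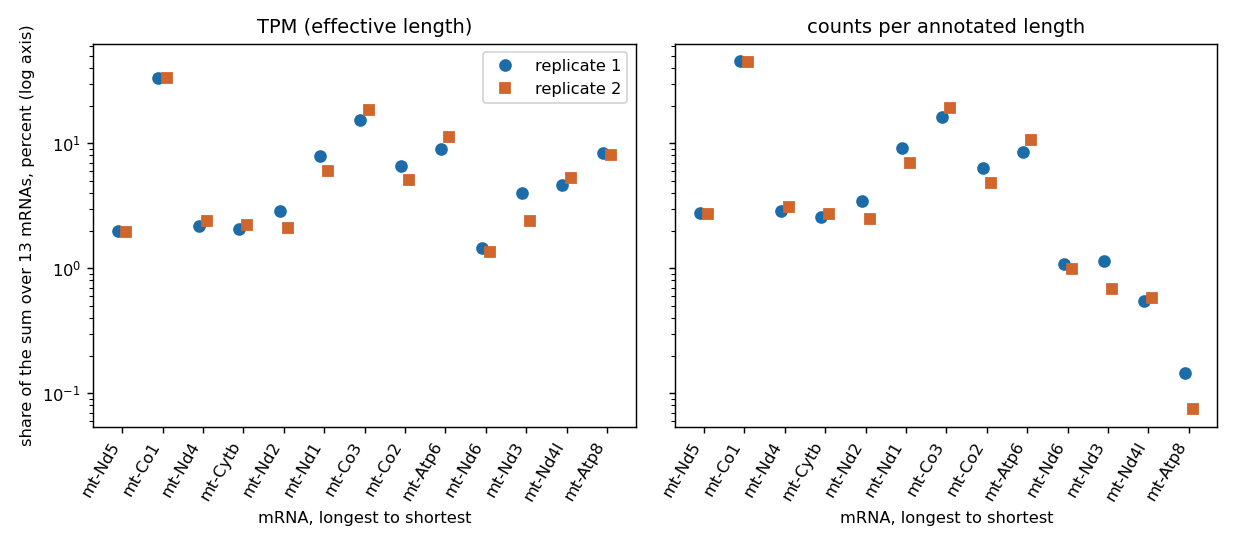
Share of each mRNA in the sum over the 13 mRNAs (percent, log axis), from TPM at left and from expected counts per annotated length at right, with genes ordered by length and 1 point per replicate. mt-Nd3, mt-Nd4l and mt-Atp8, the 3 shortest mRNAs, lie lower at right than at left, and mt-Co1 is highest in both panels.

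The light strand contributed little to the measured RNA. Of 9 genes transcribed from it, 8 are tRNAs, so mt-Nd6 (chrM:13552-14070, minus strand), a complex I subunit, was the only one with counts. It had 25088 and 24172 counts, or 1033 and 945.3 TPM, 0.103% and 0.0945% of all TPM. The median of the 12 heavy-strand mRNAs was 3963 and 3671 TPM. mt-Nd6 was below each of them in both replicates, with a log2 ratio to their median of -1.94 and -1.96. Its nearest neighbours on the map were also higher, mt-Nd5 at 1394 and 1386 TPM and mt-Cytb at 1463 and 1557 TPM. By the mean of the replicates per annotated length, 3 heavy-strand mRNAs (mt-Nd3, mt-Nd4l and mt-Atp8) ranked below mt-Nd6. For mt-Nd3 this held in replicate 2 only. In replicate 1 it lay above mt-Nd6, with 17794 counts over 348 nt against 25088 over 519 nt.

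The 22 tRNA genes were 59 to 75 nt long and none had a count. Their effective length was 0 in both replicates, since the shortest gene with an effective length above 0 was 155 nt long. A count of 0 therefore sets no limit on tRNA levels here. The shortest, mt-Ts2 (59 nt, chrM:11613-11671, plus strand), and the light-strand mt-Te (chrM:14071-14139, minus strand, printed as transcribed) that separates mt-Nd6 from mt-Cytb are shown as examples of genes these files cannot measure.
mt-Ts2: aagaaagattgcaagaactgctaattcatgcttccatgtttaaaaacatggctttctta
mt-Te: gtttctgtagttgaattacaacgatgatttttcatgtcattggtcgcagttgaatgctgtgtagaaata

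Across the 13 mRNAs the levels spanned 22.8-fold in replicate 1 and 25.1-fold in replicate 2. By mean TPM the order was mt-Co1, mt-Co3, mt-Atp6, mt-Atp8, mt-Nd1, mt-Co2, mt-Nd4l, mt-Nd3, mt-Nd2, mt-Nd4, mt-Cytb, mt-Nd5 and mt-Nd6. Of the 12 neighbouring steps in this order, 7 were larger than the spread between the 2 replicates, in that the values of the neighbours did not overlap. The steps that were not are those between mt-Nd1 and mt-Co2, mt-Co2 and mt-Nd4l, mt-Nd3 and mt-Nd2, mt-Nd2 and mt-Nd4, and mt-Nd4 and mt-Cytb. The spread between replicates does not cover the effect of short effective lengths or of the nuclear copies described below. By the mean per annotated length mt-Nd3, mt-Nd4l and mt-Atp8 ranked last, below mt-Nd6, though mt-Nd3 lay above mt-Nd6 in replicate 1. The steps beside these 3 thus depend on the length scale. Over the 12 heavy-strand mRNAs, Spearman's rho of level against position along the genome was -0.60 in replicate 1 and -0.44 in replicate 2, and against length it was -0.35 in both. These 12 genes share libraries and precursor RNAs, and the values are descriptions only.

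A stretch of nuclear chromosome 1 holds near-identical annotated copies of 7 of the mRNA genes. The search covered annotated transcripts only. A copy in unannotated sequence of this stretch, of mt-Atp8 for example, would not have been found. The 7 copies are annotated as unprocessed pseudogenes on the minus strand between chr1:24611535-24616197 (GRCm38), a block of 4663 bases. Insertions of this kind, known as nuclear mitochondrial DNA segments, are common in mammalian genomes. They matched mt-Co1 (the last 483 bases), mt-Co2, mt-Atp6, mt-Co3, mt-Nd3, mt-Nd4l and mt-Nd4 (the first 876 bases). Of these, 5 had no mismatch over the aligned bases. The other two had 1 mismatch each, A1066T between mt-Co1 and Gm29216 and T3C between mt-Nd3 and Gm28438, with the mitochondrial base first and positions counted from 1 at the start of the mitochondrial gene. The first 60 bases of mt-Nd3 (chrM:9459-9518, plus strand) and of Gm28438 (chr1:24613060-24613119, minus strand, as transcribed) are shown with the differing base in capitals, since a read that misses this base fits both.
mt-Nd3: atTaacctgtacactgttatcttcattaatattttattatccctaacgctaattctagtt
Gm28438: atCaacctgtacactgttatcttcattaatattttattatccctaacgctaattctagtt

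Counts were split between genes and copies very unevenly. For mt-Nd3, the gene had 17794 and 11361 counts and its copy Gm28438 had 20049 and 27840, so 53.0% and 71.0% of the joint count went to the copy. For mt-Co2, the gene had 194538 and 157209 counts and Gm28661 had 94007 and 91464, or 32.6% and 36.8%. For mt-Co3, the gene had 566158 and 716685 counts and Gm28437 had 227827 and 311471, or 28.7% and 30.3%. For mt-Atp6 the copy Gm10925 took 10.9% and 7.18%. The copies of mt-Co1, mt-Nd4l and mt-Nd4 took 0.529% or less in either replicate.

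The deposited tables also give an uncertainty of these counts. The posterior standard deviation of the count was 16.6% and 20.1% of the count for mt-Co3, 9.20% and 10.8% for mt-Co2, 5.75% and 4.39% for mt-Atp6, and 3.55% and 4.45% for mt-Nd3. For mt-Nd3 this was far below the 53.0% and 71.0% of the joint count that went to its copy. It therefore does not cover the change when the copy's counts are added. The levels of these 4 mRNAs are therefore uncertain. Together the 7 copies held 375340 and 458083 counts, or 0.527% and 0.610% of the library. How many of these came from chromosome 1 cannot be told apart from mitochondrial reads in these files.

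With the copies' counts added, mt-Co2 had a joint level of 6920 and 5672 TPM, mt-Co3 15195 and 18724 TPM, mt-Atp6 7056 and 8484 TPM, and mt-Nd3 5971 and 5847 TPM. The order of the 13 mRNAs by mean TPM then put mt-Co2 and mt-Nd3 above mt-Atp8 and mt-Nd1. The replicate values of mt-Co2, mt-Nd3 and mt-Atp8 (5920 and 5643 TPM) overlapped, so the order among these 3 was not resolved. All 3 lay above mt-Nd1 in both replicates. mt-Co1, mt-Co3 and mt-Atp6 were still the highest and mt-Nd6 still the lowest. This sum was chosen after the data were seen.

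**Figure D3:**
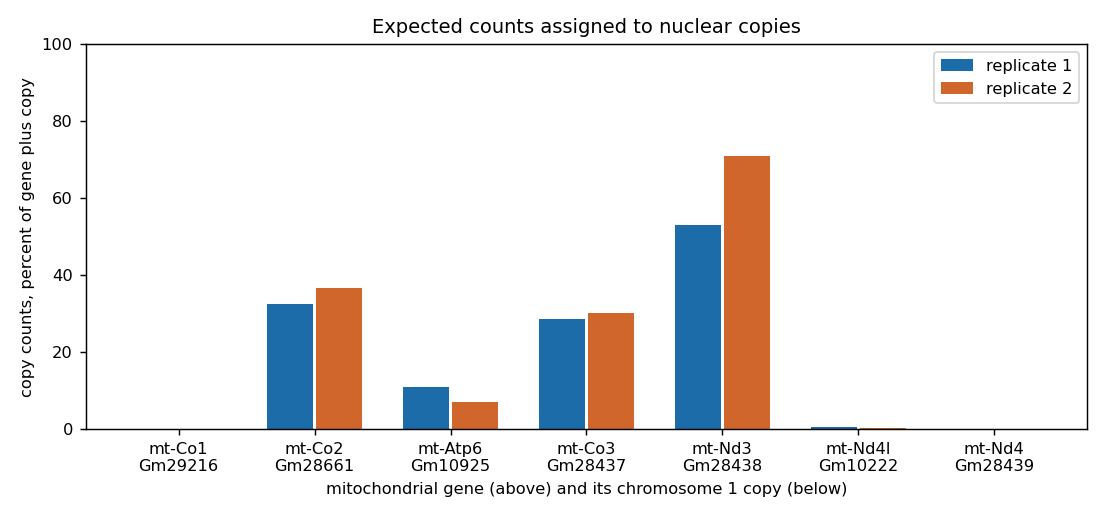
Share of the joint expected count of gene plus copy that was assigned to the chromosome 1 copy (percent), as 1 bar per replicate for each of 7 genes. The copy of mt-Nd3 took 53.0% and 71.0%, and those of mt-Co1, mt-Nd4l and mt-Nd4 are near 0.

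The replicates were close for these genes. None of the 15 mRNA and rRNA genes differed by 2-fold or more between the replicates, where 19.0% of the 11594 genes tested did (a mean of at least 1 TPM, and log2 of TPM + 0.1, centred on the median gene). Few genes of similar level did either: 1 of the 49 genes at or above the mean level of mt-Nd6, the members included, differed by that much. On another unit, undivided counts scaled by the spike-ins, mt-Atp8 passed 2-fold at -1.14, against -0.09 on the TPM scale. The median size of the log2 difference was 0.18 over the 15 genes, 0.22 over those 49 and 0.40 over all genes tested. The deposited intervals of the replicates did not overlap for 11 of the 15 genes, against 73.3% of all genes tested, so the members' share was near the background. Those intervals cover the estimate within a library only. They lie around the posterior mean, which was inside them for all 15 genes, while the TPM printed here was outside them for 8 genes in replicate 1 and 9 in replicate 2.

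Of the 13 mRNAs, 5 were higher and 8 lower in replicate 2, and the median of their log2 differences was -0.03. mt-Nd3 differed most at -0.75, followed by mt-Nd2 at -0.47, mt-Nd1 at -0.42 and mt-Co2 at -0.40. On the other side mt-Atp6 differed by 0.30 and mt-Co3 by 0.25. With the copy's counts added, mt-Nd3 differed by -0.05. mt-Nd1 and mt-Nd2 have no annotated copy in the chromosome 1 block.

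**Figure D4:**
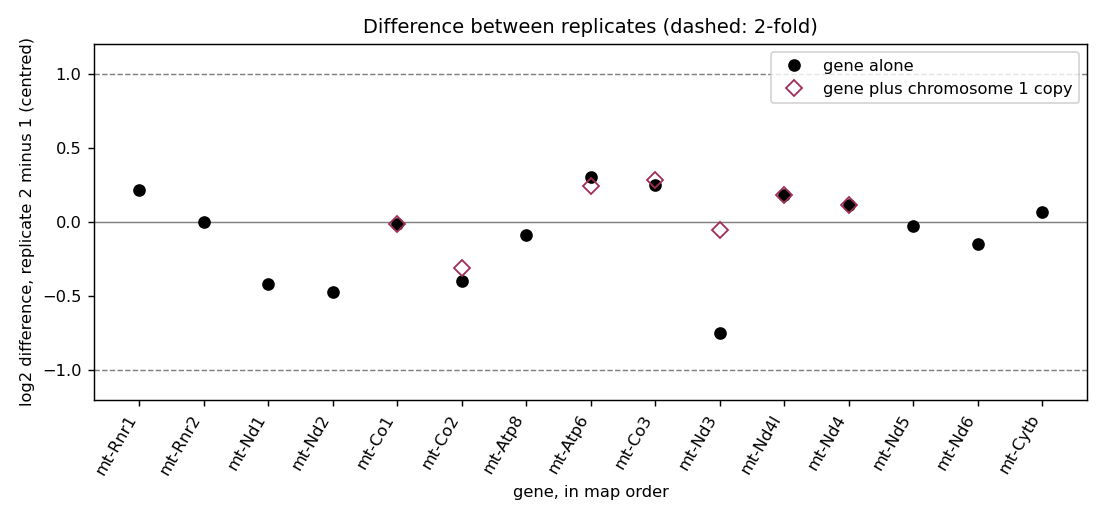
Centred log2 difference in TPM + 0.1 of replicate 2 to replicate 1 for the 15 genes in map order, for the gene alone (filled) and with its chromosome 1 copy added (open). All points lie within the dashed 2-fold lines, and mt-Nd3 is at -0.75 alone and at -0.05 with its copy added.

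The mitochondrial subunits were set beside nuclear subunits of the same complexes on the TPM scale. In complex I, the 7 mitochondrial mRNAs had a median of 2028 and 1677 TPM, against 155.4 and 147.6 TPM for the 7 nuclear core subunits, a ratio of 13.1-fold and 11.4-fold. In complex III, mt-Cytb at 1463 and 1557 TPM stood 5.49-fold and 5.71-fold above the median of 9 nuclear subunits, 266.6 and 272.8 TPM.

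In complex IV, the median of the 3 mitochondrial mRNAs was 10835 and 13051 TPM, against 358.7 and 395.0 TPM over 13 nuclear subunits, or 30.2-fold and 33.0-fold. This median is the value of mt-Co3, which shares counts with its chromosome 1 copy. With the copies' counts added, the mean log2 ratio was 5.485, against 4.981 without them. The highest nuclear subunit was Cox7c at 676.7 and 1058 TPM. In complex V, the median was 6106 and 6759 TPM, against 252.6 and 296.3 TPM over 15 nuclear subunits, or 24.2-fold and 22.8-fold. Atp5b, the catalytic beta subunit, was at 6157 and 5163 TPM. It was above mt-Atp8 in replicate 1 and below both mitochondrial mRNAs in replicate 2, so the groups overlapped in replicate 1. The complex V median rests on mt-Atp8, and its mean log2 ratio of 4.55 on the TPM scale was 3.58 per annotated length and 3.08 by undivided counts. By undivided counts the log2 ratio of complex III was 4.06, against 2.48 on the TPM scale. Subunits occur in fixed numbers in each complex, while these are mRNA levels, and no protein was measured.

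**Figure D5:**
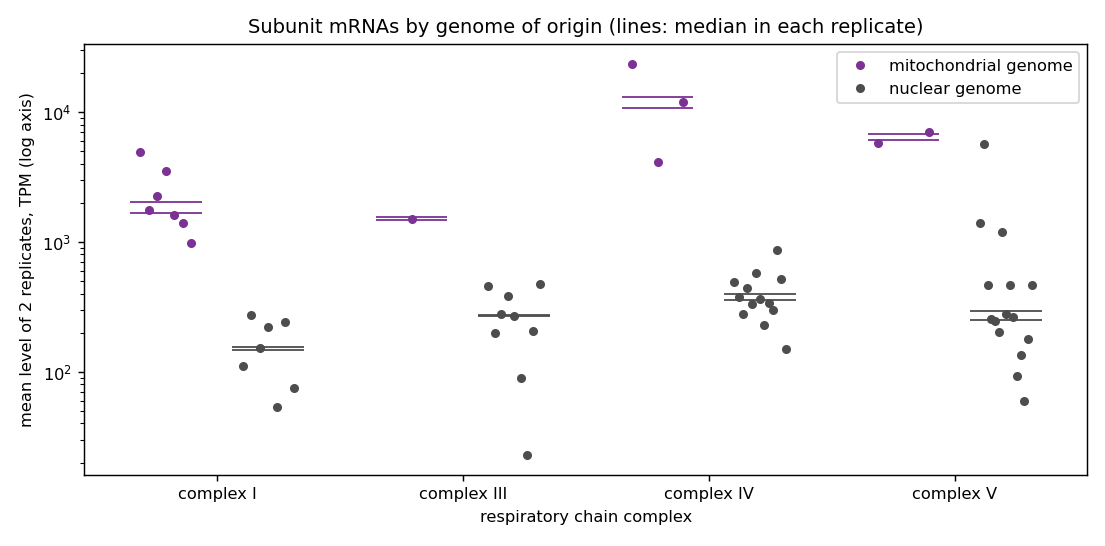
Mean TPM of 2 replicates (log axis) for subunit mRNAs of complexes I, III, IV and V, mitochondrial genes at left and nuclear genes at right in each pair, with 2 lines at the median of each replicate. Mitochondrial subunits lie above the listed nuclear ones in complexes I (core subunits), III and IV, and in complex V Atp5b lies just below mt-Atp8.

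The nuclear genes that maintain mitochondrial DNA and that read, cut, modify, stabilise and translate its RNA were far lower. Of 88 such genes in 7 lists, 80 were detected at 1 TPM in both replicates, with a sum of 935.3 and 924.4 TPM, against 70402 and 70598 TPM for the 13 mRNAs. At 1 TPM, 47.1% of all nuclear protein-coding genes were detected. At 10 TPM, 20 of the 88 were, against 16.25% of all nuclear protein-coding genes. Of 9 transcription genes, 7 were detected, led by the mitochondrial RNA polymerase Polrmt at 9.56 and 14.85 TPM and the elongation factor Tefm at 8.45 and 10.60 TPM. The transcription and packaging factor Tfam, named outside the rule after its values were seen, was at 3.09 and 3.47 TPM. Of 11 DNA maintenance genes, 7 were detected, and the highest by mean TPM was the polymerase subunit Polg at 17.67 and 8.42 TPM.

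All 4 genes of tRNA excision were detected. The RNase P subunit Hsd17b10, which is also a dehydrogenase, was at 54.50 and 49.62 TPM, and Elac2 at 9.39 and 8.88 TPM. The other RNase P subunits were lower, Trmt10c at 2.30 and 5.42 TPM and the nuclease Prorp at 1.48 and 1.57 TPM. Of 16 tRNA and rRNA modification genes, 15 were detected, with medians over the list of 3.55 and 4.99 TPM.

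Of 13 genes of RNA stability and decay, 12 were detected. Fastk led at 122.8 and 97.37 TPM, and the mRNA-binding partners Slirp and Lrpprc followed by mean TPM at 32.16 and 59.14 TPM and at 24.30 and 25.21 TPM. All 22 genes of mitochondrial tRNA charging were detected, and the highest by mean TPM were the isoleucine enzyme Iars2 at 24.36 and 26.94 TPM and the glycine enzyme Gars at 24.99 and 21.43 TPM. All 13 translation genes were detected too, and the highest by mean TPM were the elongation factors Tufm at 37.88 and 39.69 TPM and Gfm1 at 38.39 and 31.39 TPM. No gene in these 7 lists was under 0.1 TPM in both replicates.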

How the data were processed

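Total RNA-seq was measured in 2 replicates of newborn mouse heart. The authors deposited gene and transcript tables with expected counts, TPM, FPKM, posterior mean estimates and interval bounds, per the file headers. Each gene's TPM and FPKM were deposited by the authors as levels relative to effective length and library total. The interval bounds were treated as a score deposited by the authors, and their level is not given in the sources used here, nor are the aligner and quantifier. The build is mm10, per the labels, and the annotation is named M4, per the notes deposited with the files. Gene names, coordinates and sequences came from GENCODE M21 (42462 of 43346 genes matched by identifier). Depth was 71186117 and 75105452 expected counts.

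Shares, orders and ratios were computed per replicate (Python 3.11.15, pandas 2.3.3). Replicate differences used log2 of TPM + 0.1 in genes with a mean of 1 TPM or more, centred on their median, and 2-fold was called. The calling step was tested on simulated data. TMM factors came from edgeR 4.0.16 on rounded counts as an alternative. Nuclear copies were found with BLAST 2.17.0 (transcripts of at least 50 aligned bases and 80% identity; near-identical from 99% and 200 bases). Alternatives covered units, thresholds, pseudocounts, scaling, lengths and left-out replicates.

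All 37 mitochondrial genes could be named, with up to 4 of the highest genes by mean TPM in each nuclear list, every list member under 0.1 TPM in both replicates, and up to 5 nuclear copies. The members and lists were chosen with earlier results of these data known.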

Additional observations from a re-analysis of the deposited data

How the results depend on the processing

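Of 110 alternative values over 18 results, 80 stayed within the limit set for them, 28 moved past it and 2 changed sign. The limit was 1.5 times for a count of genes or steps, and for other values 1 SD, between the replicates or, for the median difference, over the 13 mRNAs. Some values could not have moved. With 2 replicates, the value of either alone always lies within 1 SD of the mean. FPKM is proportional to TPM within a library, and the tRNA genes have an effective length of 0. The share among protein-coding genes alone leaves out the rRNAs and is another quantity. The tally is thus no measure of robustness. The mitochondrial share of 21.4% of TPM was 32.5% of undivided counts, 37.7% per annotated length and 22.5% with the copies' counts added. It was 21.05% and 21.66% when a replicate was left out. With undivided counts scaled by the spike-ins, which changes unit and scaling together, 1 gene passed 2-fold between the replicates, mt-Atp8 at -1.14, and the median of all genes was -0.21. Undivided counts alone, centred on the median, gave 0. The log2 ratio of mt-Nd6 to the median heavy-strand mRNA was -1.56 per annotated length and -2.44 with the copies added, and that of mt-Rnr2 to mt-Rnr1 was 2.52 per annotated length and 3.25 by undivided counts. The ratio of mt-Nd4l to mt-Nd4 (log2 1.13) changed sign to -2.40 per annotated length, because the effective length of mt-Nd4l is far below its annotated length. By undivided counts it was -4.61, where the annotated lengths of 297 nt for mt-Nd4l and 1378 nt for mt-Nd4 enter as well. The other 20 values that moved belonged to shares of one RNA class, the mt-Atp8 to mt-Atp6 ratio, the complexes and the nuclear lists, with no change of sign. At every threshold tried, 13 of 13 mRNAs and 0 of 22 tRNA genes were detected (0.1, 1 and 10 TPM). No paired analysis was possible because the series holds 1 group, and the difference between the replicates has no value with a replicate left out. The split of counts between gene and copy limits the levels of mt-Co2, mt-Atp6, mt-Co3 and mt-Nd3, and effective lengths far below the annotated ones limit those of mt-Atp8, mt-Nd4l and mt-Nd3.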

Other observations

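Beyond the chromosome 1 block, annotated pseudogenes matched the mitochondrial mRNAs elsewhere in the nuclear genome. In all, 28 pseudogenes matched the 13 mRNAs, of which 19 had values in the tables. Of the 12 with values outside the chromosome 1 block, 9 had no count in either replicate, and 2 of these 9 had an effective length of 0 and could receive none. Gm13340 on chromosome 2, a full-length match to mt-Co1 at 97.6% identity, had 23.0 counts in each replicate, and its neighbour Gm13341, a match to mt-Co2, had 4.02 and 3.01. Gm11512 on chromosome 11, a 90.7% match to 654 bases of mt-Co1, had 0 counts in replicate 1 and 106 in replicate 2. Beside them, mt-Co1 had 3125172 and 3296378 counts.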
